A study of Homo sapiens with 3 samples.

Results

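The SOCS family of signalling suppressors was described across 3 RNA-seq libraries of the human colorectal cancer line HCT116. Its 8 members are SOCS1 to SOCS7 and CISH, and all 8 were found by gene name among the 58302 genes of the deposited table. The family was chosen by the count of SOCS6, which earlier results of these data had shown to be higher with both siRNAs. The contrast between the siRNA libraries and the control is therefore given for the members as a description, with no p-value. The control library, labelled NC, came from HCT116 cells given an siRNA of unrelated sequence. The other 2 libraries, labelled si1 and si2, came from HCT116 cells given siRNA 1 or siRNA 2 against DUOX2, an NADPH oxidase, and all cells carried the same HCT116 background with no other agent named. Each condition had 1 library, the labels give neither time nor dose, and it is not stated whether the cultures were separate.

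SOCS proteins are induced or constitutive inhibitors of cytokine and growth factor signalling. Each carries an SH2 domain, which binds phosphorylated tyrosines on a receptor or kinase, and a SOCS box, which recruits elongins B and C and the scaffold CUL5 to form a ubiquitin ligase. CISH, SOCS1, SOCS2 and SOCS3 are the classical feedback members, whose genes are switched on by STAT transcription factors and whose products act on the JAK-STAT pathway. SOCS4, SOCS5, SOCS6 and SOCS7 have long N-terminal regions and are mostly linked to receptor tyrosine kinases and insulin signalling. In the colon epithelium SOCS3 is known as a brake on IL-6 and STAT3 signalling.

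The libraries held 17589502 (control), 19130768 (siRNA 1) and 18832672 counts (siRNA 2). DUOX2 itself had 2, 2 and 0 counts, so its knockdown could not be checked at this depth. All 7 colorectal epithelial markers were detected, with summed FPKM (the count scaled to gene length and to library total) of 752 (control), 470 (siRNA 1) and 640 (siRNA 2). The library protocol in the labels speaks of retinas, but CRX, PDE6B, OPN1SW and RPE65, defining genes of that tissue, were at 0 in every library and no retina marker exceeded 14 counts. Of the leukocyte markers PTPRC, and of 7 fibroblast and endothelial markers CDH5, DCN, LUM and PECAM1, were at 0 throughout. Other markers of these lists were detected. The highest count in a library was 24 for a leukocyte marker and 57 for a fibroblast or endothelial marker. In bulk RNA, fewer cells with a transcript and less of it per cell cannot be told apart.

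The sequences that set the libraries apart are the siRNAs. Each is printed 5′ to 3′ with its seed, bases 2 to 8, in capitals, because the seed governs which unintended transcripts an siRNA can pair with. The sense strands of siRNA 1 and siRNA 2 were found whole in the longest DUOX2 transcript of GENCODE 29, and that of the control siRNA was not.
siRNA 1 antisense: aACCACUAuguuguccucctt
siRNA 1 sense: gGAGGACAacauagugguutt
siRNA 2 antisense: aUGAAGGAucgcaucauggtt
siRNA 2 sense: cCAUGAUGcgauccuucautt
control siRNA antisense: aCGUGACAcguucggagaatt
control siRNA sense: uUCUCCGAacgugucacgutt

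The longest coding transcript of each member was searched for perfect matches to the 7-base complements of these seeds. SOCS6 held a match for siRNA 1 antisense in its coding sequence (bases 1405 to 1411 of ENST00000397942.3) and a match for siRNA 1 sense in its 3′ UTR (bases 4005 to 4011). It also held 1 match for siRNA 2 sense in the 3′ UTR (bases 4094 to 4100). The sites are shown with the match in capitals, because SOCS6 is the member that differed most between the libraries.
SOCS6, siRNA 1 antisense: gtgcaaagTAGTGGTcccatggt
SOCS6, siRNA 1 sense: catttacaTGTCCTCcttgtgag
SOCS6, siRNA 2 sense: cgttttctCATCATGccatgtgt

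Such matches are common. Among the longest transcripts of 19788 protein-coding genes, 12.2% held the site of siRNA 1 antisense (TAGTGGT), 29.4% that of siRNA 1 sense (TGTCCTC) and 27.7% that of siRNA 2 sense (CATCATG). No member held a site for either strand of the control siRNA (TGTCACG in 6.69% and TCGGAGA in 10.4% of transcripts). The site of siRNA 2 antisense (TCCTTCA, 31.2% of transcripts) was absent from SOCS6, and occurred 1 time in SOCS3, 1 time in SOCS4 and 3 times in SOCS7. SOCS7 also held 3 sites for siRNA 1 sense. CISH, SOCS1, SOCS2 and SOCS5 held none for any strand. A match is a stretch of letters and does not show that the siRNA bound there.

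All 8 members passed the filter on low counts. In the control they spanned from 1.48 CPM (the count scaled to the library total) for SOCS1 to 71.6 CPM for SOCS4. SOCS4, SOCS5, SOCS6 and SOCS7 together had 181 (control), 244 (siRNA 1) and 233 CPM (siRNA 2). The feedback members CISH, SOCS1, SOCS2 and SOCS3 together had 24.1, 22.9 and 20.3 CPM.

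**Figure D1:**
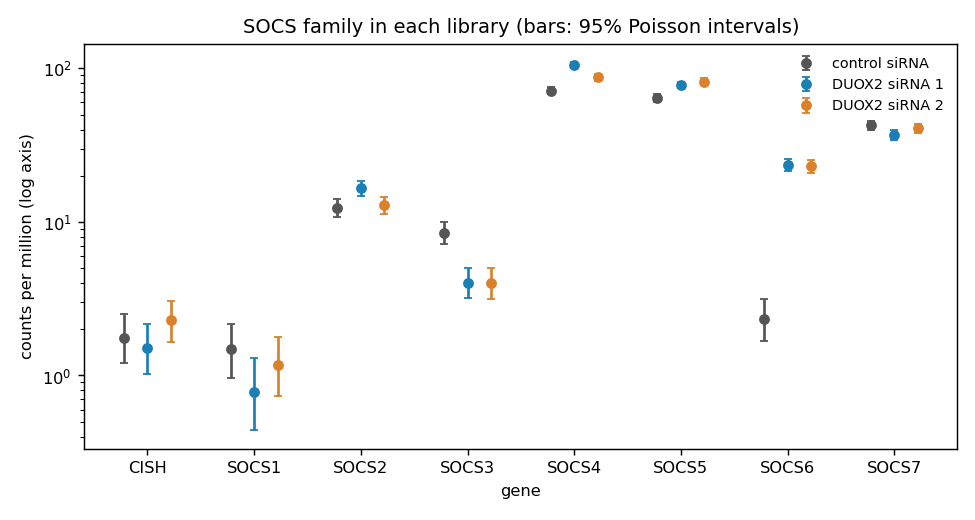
Level of each SOCS family member in each library, in CPM on a log axis; points are single libraries and bars are 95% Poisson intervals, which cover counting error only. SOCS6 stands at 2.33 in the control library and at 23.5 and 23.1 in the siRNA libraries, while the points of SOCS7 lie between 37.1 and 42.5.

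Genes can be compared with each other only per length, and here the choice of length mattered. The length behind the authors' FPKM was recovered from the count, the FPKM and the library total. For 91.1% of 12542 genes with overlapping exons it equalled, within 1 base, the sum of all distinct exons of GENCODE 29, so that bases shared by exons of different transcripts were counted repeatedly. The same held for 6 of the 8 members. The exceptions were SOCS1 (1225 bases, against 3009 summed and 1796 merged) and SOCS5 (8829 against 12131 and 7598). The coordinates of SOCS1 and SOCS5 in the deposited table also differ from GENCODE 29. For SOCS2, with 12 annotated transcripts, that length was 17997 bases against 6776 bases of merged exons, and for SOCS4 it was 17853 against 7043. FPKM is thus lowered most for genes with many overlapping exons, while ratios between libraries for the same gene are not affected.

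Per kilobase of merged exons, the control levels were 10.2 CPM per kb for SOCS4 (95% Poisson interval 9.61 to 10.7), 8.44 for SOCS5 (7.96 to 8.95), 4.93 for SOCS7 and 3.12 for SOCS3. They were 1.82 for SOCS2, 0.823 for SOCS1 (0.538 to 1.21), 0.390 for SOCS6 (0.280 to 0.528) and 0.345 for CISH (0.234 to 0.489). The intervals of SOCS6 and CISH overlapped, and those of the other neighbours in this order did not. For SOCS1 and SOCS5 the merged length may not be the one their reads were counted on. With the length behind its FPKM, SOCS1 stood at 1.21 (0.788 to 1.77), which overlaps the interval of SOCS2 (1.59 to 2.08). By FPKM, SOCS5 came first at 7.26, followed by SOCS7 at 4.10 and SOCS4 at 4.01, with overlapping intervals for the latter pair, then SOCS3 at 2.76, SOCS1 at 1.21 and SOCS2 at 0.686. SOCS6 at 0.249 and CISH at 0.195 were lowest on this scale too. On both scales SOCS6 moved from place 7 of 8 in the control to place 4 with either siRNA.

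**Figure D2:**
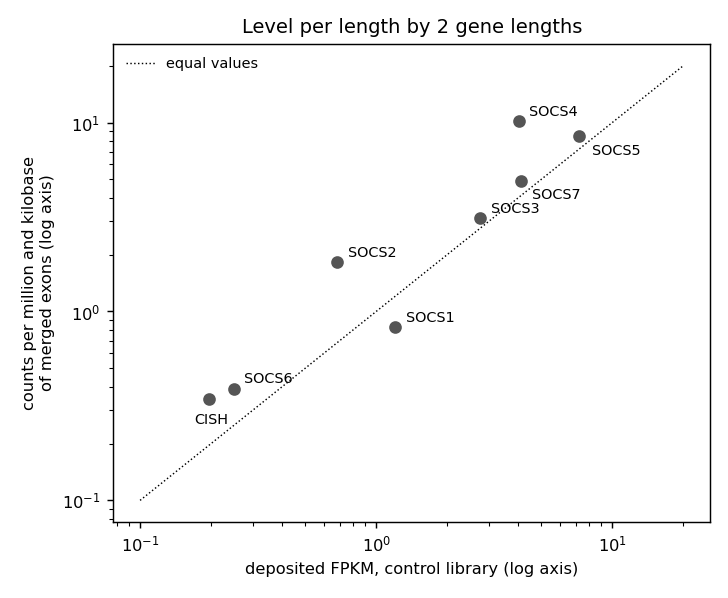
Level of the 8 members in the control library by the deposited FPKM (horizontal) and by CPM per kilobase of merged exons (vertical), both on log axes; the dotted line marks equal values. SOCS4 (4.01 and 10.2) and SOCS2 (0.686 and 1.82) lie farthest above the line. SOCS1 (1.21 and 0.823), whose FPKM length is shorter than its merged exons, lies below it.

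SOCS6, an adaptor that binds the receptor KIT and insulin signalling proteins and directs them to degradation, had 41 counts in the control library against 449 (siRNA 1) and 435 (siRNA 2). Both siRNA libraries were high and the control was low, and the Poisson interval of the control in CPM (1.67 to 3.16) did not overlap those of siRNA 1 (21.4 to 25.7) and siRNA 2 (21.0 to 25.4), which overlapped each other. Scaled to library size with TMM, the trimmed mean normalization of edgeR, SOCS6 was 11.1-fold the control with siRNA 1 (95% counting interval 8.05 to 15.7) and 10.3-fold with siRNA 2 (7.49 to 14.6). The mean log2 fold change was 3.36 ± 0.07 (SD, n = 2 siRNA libraries). In each library the SOCS6 FPKM was above that of 38.1% (control), 65.2% (siRNA 1) and 63.5% (siRNA 2) of protein-coding genes. These are the values by which the family was chosen.

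SOCS6 (ENSG00000170677) lies on the plus strand of chromosome 18, at 70288901 to 70330200 (GRCh38). Its exons share no base with another gene, so its reads are not divided with a neighbour. Within 2 Mb the only other genes that passed the count filter were RTTN, a centriole protein, which had 188, 196 and 229 counts in the control, siRNA 1 and siRNA 2 libraries, and TMX3, a thiol oxidoreductase of the ER, which had 462, 446 and 682. Of all 17263 genes tested, 17 were higher than SOCS6 when ranked by the smaller of their rises with the 2 siRNAs, 9 of them among the 13251 protein-coding genes.

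The genes nearest to SOCS6 by distance over the 2 log2 fold changes were sought among 11741 protein-coding genes with at least 50 counts in a library. They were MYC, the growth-promoting transcription factor (distance 0.29), TGIF2-RAB5IF, a read-through gene (0.60), AC022400.6 (0.66) and the zinc-finger genes ZNF791 (0.66) and ZNF766 (1.13). MYC had 281, 2447 and 2709 counts and ZNF791 had 122, 938 and 908. The read-through had 12, 98 and 120 counts, and its reads cannot be told from those of the genes it joins. This likeness rests on 2 values per gene that share the control library.

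The other members differed far less. SOCS3, the inhibitor of gp130 cytokine receptors, had 150 counts in the control library against 77 (siRNA 1) and 75 (siRNA 2), so that both siRNA libraries lay below the control. This was 0.520 of the control with siRNA 1 (0.390 to 0.689) and 0.487 with siRNA 2 (0.364 to 0.647), a mean log2 fold change of -0.97 ± 0.07 (SD, n = 2). SOCS1, which blocks Janus kinases directly, had 26, 15 and 22 counts. Its interval of the fold included 1 with either siRNA (0.288 to 1.15 and 0.445 to 1.51), so a difference was not detectable at this depth.

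CISH, a target of STAT5 that restrains receptor signalling, had 31, 29 and 43 counts, and its log2 fold changes of -0.07 and 0.41 differed in sign between the siRNAs. Its fold intervals also included 1 (0.551 to 1.63 and 0.832 to 2.22). CISH is uncertain because 4.3% of its exon bases are shared with MAPKAPK3 on the other strand, which had 3275, 2624 and 2820 counts, and the treatment of strand is not given. SOCS2, a regulator of growth hormone signalling, had 217, 318 and 243 counts. It was 1.49-fold the control with siRNA 1 (1.25 to 1.77) and 1.09-fold with siRNA 2 (0.904 to 1.32), and 4.1% of its exon bases are shared with SOCS2-AS1 on the other strand (27, 18 and 31 counts).

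Among the members with long N-terminal regions, SOCS4, linked to EGFR turnover, had 1259, 2006 and 1649 counts. It was 1.61-fold the control with siRNA 1 (1.50 to 1.73) and 1.28-fold with siRNA 2 (1.185 to 1.37). SOCS5, also linked to EGFR and to IL-4 signalling, had 1128, 1493 and 1545 counts, which is 1.34-fold (1.24 to 1.45) and 1.33-fold (1.235 to 1.44). SOCS7, which binds insulin receptor substrates, had 748, 710 and 767 counts and was 0.962 (0.867 to 1.07) and 0.999 (0.902 to 1.11) of the control. SOCS7 was thus the member nearest to the control with both siRNAs. Processed pseudogenes named for SOCS2 and SOCS5 had at most 5 counts in a library. How reads aligned to several places were counted is not given, so reads lost to such places cannot be judged from these counts.

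With a size rule that asks for 2-fold or more from the control, in 1 direction, in each siRNA library, 1 of 8 members qualified. That member was SOCS6, for which the family was chosen, and 4.0% of all genes tested were at least 2-fold higher and 5.05% at least 2-fold lower by that rule. The rule left out SOCS3 by the value with siRNA 1, since its log2 fold changes were -0.93 and -1.02. With scaling by total count in place of TMM both were beyond 2-fold. Of the members, 0 of 8 passed edgeR's quasi-likelihood test at an adjusted p threshold of 0.05, against 0.0579% of all genes (10 of 17263). At an unadjusted p under 0.05 there were 2 of 8 members, against 26.0% of all genes, and DESeq2 called 1 of 8 and gave no adjusted p for 3 others, against 3.28% of all genes called. Nothing is read from these counts, as the contrast chose the family.

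**Figure D3:**
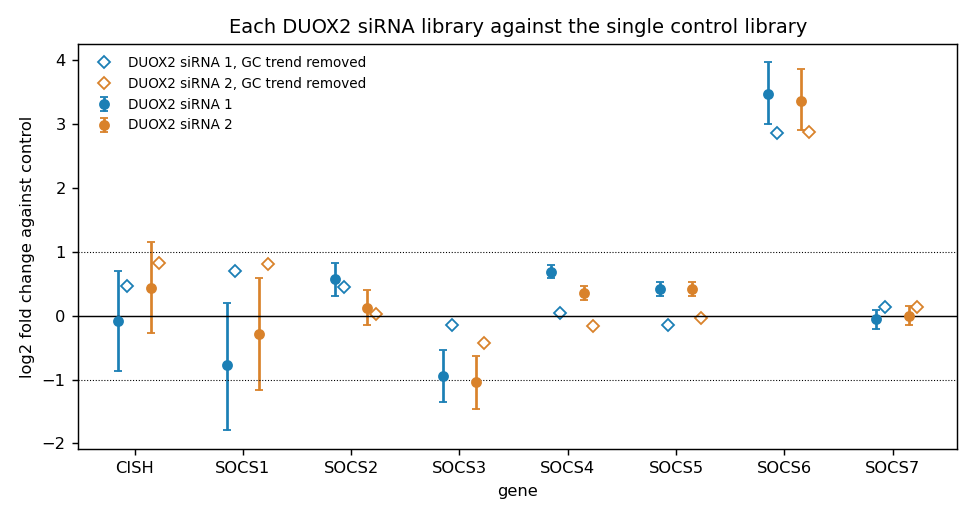
Log2 fold change of each member with siRNA 1 and siRNA 2 against the single control library; filled points carry 95% counting intervals, open diamonds are the values after subtraction of the GC trend, and dotted lines mark 2-fold. Filled points are drawn without a prior count, and diamonds from values with a prior count of 2. SOCS6 stands above 2-fold by either value (11.1-fold and 10.3-fold, or log2 fold changes of 2.86 and 2.88 after subtraction). SOCS4 and SOCS5 come to within 0.16 of 0 after subtraction.

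GC content moved with the fold changes across all genes and so also within the family. The median log2 fold change of genes with less than 40% GC was 0.58 with siRNA 1 and 0.45 with siRNA 2, and that of genes with at least 60% GC was -1.01 and -0.76. The members cover this range: SOCS4 has 35.3% GC in its longest transcript, SOCS5 37.5%, SOCS6 38.0%, SOCS2 47.3%, SOCS7 52.1%, CISH 56.7%, SOCS3 60.0% and SOCS1 69.1%. The members lowest in GC were the ones above the control with both siRNAs, together with SOCS2, and the GC-rich SOCS1 and SOCS3 were below it.

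With the lowess trend on GC subtracted, 4 of 8 members kept the sign of their mean fold change. SOCS6 kept log2 fold changes of 2.86 with siRNA 1 and 2.88 with siRNA 2, and 1046 genes within 1 percentage point of its GC content had medians of 0.57 and 0.44 before subtraction. SOCS4 moved from 0.69 and 0.35 to 0.04 and -0.16, and SOCS5 from 0.42 and 0.42 to -0.15 and -0.03. SOCS3 moved from -0.93 and -1.02 to -0.14 and -0.42. SOCS1 moved from -0.70 and -0.26 to 0.70 and 0.80, so its direction depends on this choice and, at 15 to 26 counts, on little depth. CISH moved to 0.46 and 0.82, SOCS2 to 0.45 and 0.03 and SOCS7 to 0.14 with both. After subtraction 15 protein-coding genes were above SOCS6 by the smaller of their rises.

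**Figure D4:**
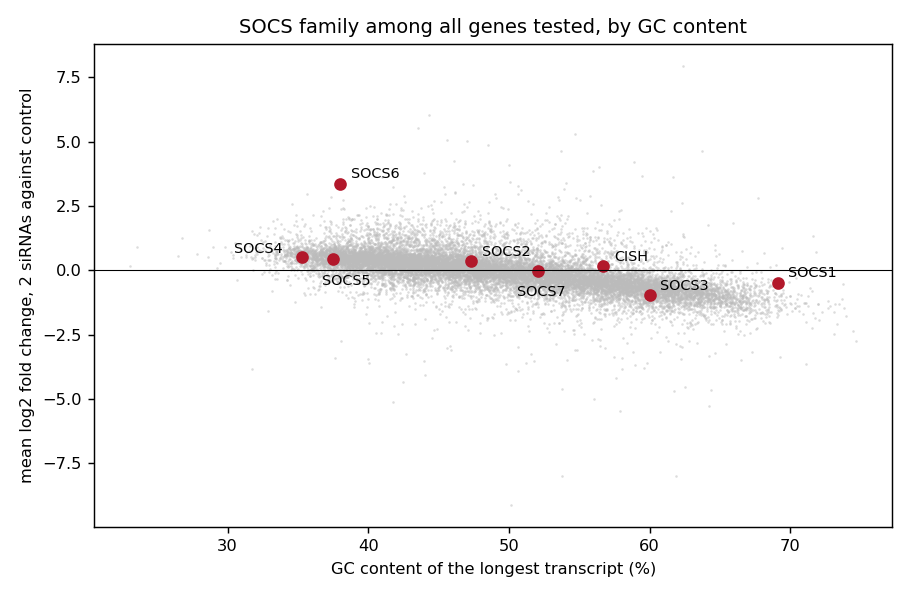
Mean log2 fold change of the 2 siRNA libraries against the control (vertical) by GC content of the longest transcript (horizontal); grey points are the genes tested and red points the SOCS family. SOCS6 lies at 38.0% GC and 3.36, above the band of grey points, while SOCS3, SOCS4, SOCS5 and SOCS7 lie within it.

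The ratio of siRNA 2 to siRNA 1 was not itself used to choose the family, but SOCS6 was chosen as higher with both. Its likeness between the siRNAs was favoured by that choice and is a description only. Each siRNA has 1 library, so only counting error can be given. SOCS6 with siRNA 2 was 0.931 of its level with siRNA 1, and the interval (0.814 to 1.065) included 1. The same held for SOCS1 (ratio 1.41, 0.699 to 2.92), SOCS3 (0.936, 0.672 to 1.30), SOCS5 (0.995, 0.926 to 1.07), SOCS7 (1.04, 0.936 to 1.15) and CISH (1.43, 0.870 to 2.37). The interval excluded 1 for SOCS2 (0.735, 0.619 to 0.871) and SOCS4 (0.790, 0.740 to 0.844), which were both higher with siRNA 1. None of the 8 was 2-fold apart between the siRNAs, against 6.56% of all genes tested.

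The feedback members are known for STAT sites in their promoters, and the RefSeq promoter table (GRCh38.p14) held 5 members, CISH, SOCS1, SOCS3, SOCS4 and SOCS6. The 250 bases before each listed start were searched for the STAT motif TTCNNNGAA, which reads the same on both strands. CISH held 4 matches and the windows of the other 4 members held none. Of 35116 windows, 6.57% held at least 1 match and 5 held at least 4. SOCS3 had 2 windows, chr17:78359668-78359917 and chr17:78360926-78361175. Neither covers the bases just before the SOCS3 start in the deposited table (78360077, minus strand), so those bases were not searched. The CISH window (chr3:50611775-50612024, minus strand) and the SOCS6 window (chr18:70288795-70289044, plus strand) are shown 5′ to 3′ with matches in capitals, as the 2 members with the lowest control levels, of which CISH stayed low and SOCS6 was high with the siRNAs.
CISH: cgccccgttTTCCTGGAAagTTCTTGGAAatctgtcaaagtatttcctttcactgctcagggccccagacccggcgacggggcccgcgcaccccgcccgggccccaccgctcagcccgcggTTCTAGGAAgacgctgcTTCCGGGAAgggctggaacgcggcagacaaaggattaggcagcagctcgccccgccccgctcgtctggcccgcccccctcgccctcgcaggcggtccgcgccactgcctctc
SOCS6: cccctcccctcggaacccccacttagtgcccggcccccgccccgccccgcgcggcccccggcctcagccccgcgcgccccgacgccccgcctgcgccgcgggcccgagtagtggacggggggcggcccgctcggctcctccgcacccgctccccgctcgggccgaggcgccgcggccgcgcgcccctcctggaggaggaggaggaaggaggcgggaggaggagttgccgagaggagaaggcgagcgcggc

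The SOCS6 window was 82.0% G and C and that of CISH 68.8%, while the longest SOCS6 transcript had 38.0%. Both windows reach into the annotated gene, as SOCS6 starts at 70288901 and CISH, on the minus strand, at 50611831. A match is a description of the letters, and a window without one says nothing of the factor.

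The surrounding pathway was read through 9 lists of 181 genes, of which 129 passed the count filter. Over all lists 1 gene rose and 0 fell by edgeR's test adjusted over all genes, against 0.0174% of all genes higher and 0.0405% lower. At an unadjusted p under 0.05 there were 37 of the 129, against 26.0% of all genes, and DESeq2 called 4, against 3.28% of all genes, so neither count is read as a result about the pathway. The gene that rose was MYC (log2 fold change 3.19, edgeR adjusted p = 0.0274). With scaling by total count 0 pathway genes passed, including MYC. By the rule of size 2 of the 129 were higher (1.55%, against 4.0% of all genes tested) and 9 lower (6.98%, against 5.05%). The median mean log2 fold change was -0.16, against -0.002 over all genes tested, and -0.03 with siRNA 1 and -0.02 with siRNA 2 after subtraction of the GC trend.

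Upstream of the SOCS genes, 26 of 38 cytokine receptors and 10 of 28 cytokines and interferons passed the filter. By the rule of size 1 receptor was higher (3.85%, against 4.0% of all genes tested) and 2 were lower (7.69%, against 5.05%), with a list median of -0.33. CNTFR, a lower one named after its values were seen, had 28, 6 and 6 counts. IL20RA, a receptor chain of the IL-20 family, had 71, 146 and 174 counts in the control, siRNA 1 and siRNA 2 libraries. IL15RA, which presents IL-15, had 296, 138 and 165 counts, and IL11RA had 107, 43 and 62. Of the cytokines, LIF, a gp130 ligand that induces SOCS3 in many cells, had 1580, 1092 and 1246 counts, and CLCF1, of the same family, had 248, 87 and 163. IL24 had 189, 246 and 292. The single cytokine lower by that rule, IFNL1, had 28, 0 and 6 and was likewise named after its values were seen. None of these genes passed the test, and with the GC trend subtracted LIF stood at 0.03 and 0.04 on the log2 scale. The receptor list median was then -0.04 with siRNA 1 and -0.14 with siRNA 2. After the same subtraction IL20RA stood at 0.77 and 1.02, IL15RA at -0.46 and -0.40 and IL11RA at -0.73 and -0.40.

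All 4 Janus kinases and 6 of 7 STAT genes passed the filter, and none of them was 2-fold apart or passed the test. Of all genes tested, 4.0% were higher and 5.05% lower by the rule of size, and 0.0579% passed the test. JAK1 had 2510, 3177 and 3158 counts, TYK2 1044, 585 and 727, and JAK3 58, 29 and 47. STAT5A, which acts upstream of CISH, had 283, 155 and 174 counts, STAT2 1737, 1270 and 1302, and STAT6 1223, 894 and 929. Among the STAT target genes, whose list median was -0.18, JUNB, an AP-1 factor, had 648, 202 and 219 counts and CEBPD 527, 227 and 313, beside the rise of MYC. After subtraction of the GC trend JUNB (64.9% GC) had log2 fold changes of -0.53 and -0.75 and CEBPD (70.0% GC) 0.27 and 0.32. The median of the STAT target list was then 0.11 with siRNA 1 and 0.05 with siRNA 2. TYK2 (61.3% GC) moved from -0.81 and -0.56 to 0.06 and 0.11.

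A list of 17 genes was drawn up around the ubiquitin ligase of the SOCS box. It holds cullin ligase subunits and proteins that act with them, not all of them particular to the SOCS box. All 17 passed the filter, and 0 passed the test or the rule of size. The shares of all genes were 0.0579% for the test, and 4.0% higher and 5.05% lower for the rule. An unadjusted edgeR p under 0.05 was found for 8 of the 17, against 26.0% of all genes, and DESeq2 called 1, against 3.28%. CUL5, the scaffold, had 1340, 1914 and 2088 counts, ELOC 606, 1055 and 700, and ELOB 806, 410 and 501. CUL5 and ELOC were named after their values were seen, as the direct partners. UBE2D1, a ubiquitin-conjugating enzyme, had 189, 360 and 430, and UBE2M, which conjugates NEDD8 to cullins, had 3282, 1503 and 1999. ELOB and UBE2M are rich in GC (61.1% and 65.6%), and with the trend subtracted their log2 fold changes lay between -0.09 and 0.13. CUL5 (36.6% GC) moved from 0.53 and 0.60 to -0.07 and 0.13. UBE2D1 (34.0% GC) moved from 0.94 and 1.14 to 0.24 and 0.595. ELOC (49.5% GC) had 0.82 and 0.17 before subtraction and 0.84 and 0.18 after it.

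Other proteins with a SOCS box, 19 of 31 measured, gave 0 calls and 3 genes that were at least 2-fold lower, against 5.05% of all genes tested, with a median of -0.29. That median was -0.22 with siRNA 1 and -0.01 with siRNA 2 after subtraction of the GC trend. SPSB2, which targets the inducible nitric oxide synthase, had 92, 24 and 37 counts, NEURL2 82, 26 and 35, and RAB40B, a small GTPase, 88, 35 and 41. Among 13 other inhibitors of JAK-STAT signalling, 1 was at least 2-fold lower (7.69%, against 5.05% of all genes tested). It was PIAS3, an inhibitor of STAT3, which had 474, 176 and 199 counts. PIAS4 had 433, 202 and 303, and USP18, which restrains interferon signalling, 301, 192 and 165. After subtraction of the GC trend PIAS3 had log2 fold changes of -1.07 and -1.03, whereas SPSB2 (-0.94 and -0.63), NEURL2 (-0.40 and -0.34), RAB40B (-1.02 and -0.92) and PIAS4 (-0.13 and 0.16) were short of 2-fold with at least 1 siRNA. Among 13 receptor tyrosine kinases and their adaptors, IRS1, an insulin receptor substrate, had 546, 257 and 335 counts, GRB2 1664, 872 and 1285, and ERBB2 1247, 933 and 838. With the trend subtracted ERBB2 had log2 fold changes of 0.20 and -0.15. The 1 gene of that list at least 2-fold lower (7.69%, against 5.05% of all genes tested) was FGFR3, again named afterwards, with 42, 17 and 15 counts. With the trend subtracted FGFR3 had log2 fold changes of -0.27 and -0.70. Of the receptors best known as SOCS6 partners, KIT had 8, 11 and 15 counts and FLT3 had 0 in every library.

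**Figure D5:**
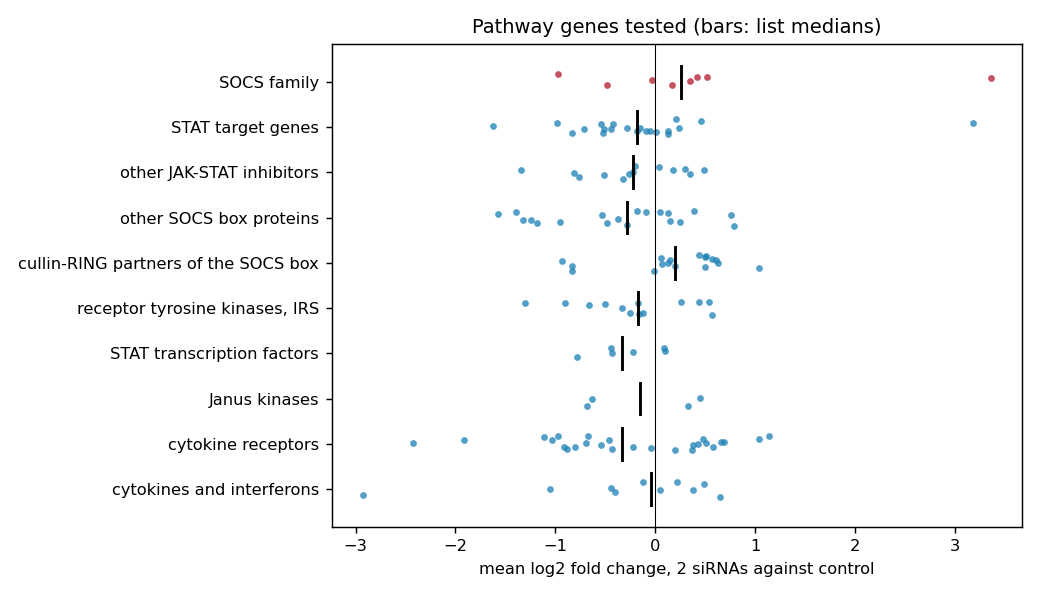
Mean log2 fold change of the 2 siRNA libraries against the control for each pathway gene that passed the count filter, by list; points are genes and black bars list medians. SOCS6 at 3.36 and MYC, with 3.13 and 3.22 for the 2 siRNAs, lie apart to the right, and the list medians lie between -0.33 and 0.26.

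The members are scattered over the genome, and in the deposited table (GRCh38) SOCS1 lies on chromosome 16 at 11254405 to 11256179, SOCS2 on chromosome 12 at 93569814 to 93583487 and SOCS3 on chromosome 17 at 78356778 to 78360077. SOCS4 lies on chromosome 14 at 55027230 to 55049488, SOCS5 on chromosome 2 at 46698952 to 46763129, SOCS7 on chromosome 17 at 38352228 to 38405593 and CISH on chromosome 3 at 50606490 to 50611831. The longest annotated coding sequences were 594 bases for SOCS2, 633 for SOCS1, 675 for SOCS3 and 825 for CISH, and 1320 for SOCS4, 1605 for SOCS6, 1608 for SOCS5 and 1743 for SOCS7. The 3′ UTR of the longest coding transcript ran from 426 bases in SOCS1 to 6111 in SOCS7 and was 3924 in SOCS6. SOCS6 was thus close to SOCS5 in coding length and GC content, and the pair stood 11.1-fold and 1.34-fold from the control with siRNA 1. Whether length or GC content bears on these folds was not tested.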

How the data were processed

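RNA of HCT116 cells was sequenced in 3 libraries, 1 control and 2 with siRNAs against DUOX2. The authors deposited a raw read count and an FPKM value for each gene and library. The submitters' processing notes list Bowtie 0.12.2 together with 2 builds, mm8 and GRCh38, and do not say what each was used for. How reads were counted, by strand and when aligned to several places, is not given in the sources used here. Of 58039 genes found in GENCODE 29 (GRCh38), 97.5% had identical coordinates, among them 6 of the 8 members.

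The 2 libraries with siRNAs against DUOX2 formed 1 group, so the spread behind the p-values is that between these libraries. It may be technical, and it mixes any difference between the siRNAs with differences between cultures and libraries. The single control adds no spread. For each gene edgeR also borrows spread from the other genes (prior degrees of freedom 4.66). Differential expression was tested over 17263 genes with edgeR 4.0.16 (TMM, filterByExpr with a minimum count of 10, glmQLFTest, 1 residual degree of freedom), with Benjamini-Hochberg adjustment at 0.05, and checked on simulated data. DESeq2 1.42.0 and limma 3.58.1 served as alternatives. A log2 fold change for 1 siRNA is its log2 CPM minus that of the control, after adding a prior count of 2. Fold intervals are exact conditional binomial at 95% and, like the Poisson intervals, cover counting error only (several reads can be PCR copies of 1 molecule). The GC trend was a lowess fit with fraction 0.3. 

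The members, lists and rules were chosen with earlier results of these data known. Named genes were the 8 members, DUOX2, per list the 3 genes with the largest smaller fold change in the same direction with at least 50 counts, called genes, and the 5 genes nearest to SOCS6. A few genes of the marker and pathway lists are not reported here by name.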

Additional observations from a re-analysis of the deposited data

How the results depend on the processing

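The mean log2 fold change of SOCS6, 3.36, was 1.48 on the log2(FPKM + 1) scale, which understates low genes by construction, and 2.87 with the GC trend removed. It lay between 3.26 and 3.41 with DESeq2 size factors, scaling by total count, a prior count of 0.5, or 1 siRNA left out (3.31 without replicate 1, 3.41 without replicate 2). The number of members at least 2-fold from the control, 1, was 2 with scaling by total count, and 1 to 2 with 1 siRNA left out, the added member being SOCS3. With the GC trend removed 4 of 8 members kept their sign, with siRNA 1 alone 7 of 8, and with each other alternative 8 of 8. The 1562 genes at least 2-fold from the control with both siRNAs became 447 on the FPKM scale, 817 with the GC trend removed, 2635 without a filter, and 2311 to 3523 with 1 siRNA left out, where 1 comparison has to be met in place of both. For pathway genes the 11 became 3, 4, 20, and 14 to 23. The 10 genes called by edgeR became 567 with DESeq2 (263 higher, 304 lower), 9 with scaling by total count, and 0 without a filter, with limma on FPKM and with the GC trend as an offset, with unadjusted p under 0.05 for 3938, 4282 and 1748 genes. The 1 pathway gene became 4 with DESeq2 and 0 with scaling by total count, without a filter, with limma on FPKM and with the GC offset, where 34, 32, 32 and 11 had an unadjusted p under 0.05. The causes of these shifts were not tested. The order of levels by merged exon length was chosen after seeing the data. With 1 siRNA left out, no residual degree of freedom remained and no test was run. No paired analysis was possible because the groups share fewer than 2 replicate numbers. Depth limits SOCS1 and CISH, with 15 to 43 counts in a library.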
